A study of Cricetulus griseus with 9 samples.

Results

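The genes described here code for the splicing machinery and its main partner proteins: the spliceosome, the serine- and arginine-rich (SR) proteins and the heterogeneous nuclear ribonucleoproteins (hnRNPs). They were chosen by name alone, as every row of the deposited table whose symbol starts with Snrp, Sf3a, Sf3b, U2af, Prpf, Srsf, Srrm, Hnrnp, Tra2 or Cwc, starts with Lsm or Rbm and a digit, or is Sf1, Crnkl1 or Snw1. This rule found 91 of 6753 genes, and no row for U2af or Crnkl1. By name they formed 6 groups: 15 Sm and Lsm genes, 10 genes of the U2 snRNP and branch point, 16 Prp, Cwc and catalytic core genes, 12 SR genes, 16 hnRNP genes and 22 RBM genes. The Sm and Lsm group takes every Snrp and Lsm name. It therefore also holds Snrpa and Snrpa1, which code for the U1 A and U2 A′ proteins and not for Sm or Lsm proteins. All 91 passed the filter on low values.

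RNA was measured by mRNA sequencing in MI5-4 cells, which derive from Chinese hamster ovary (CHO) cells. There were 3 groups of 3 libraries. WTHK2 cells were labelled as expressing wild-type HK2, a hexokinase. LAC cells, described as hexokinase-null, were given sodium lactate at 10 mM for 24 h. EV (empty vector) cells had the same description and no lactate. All groups came from 1 line grown in the same medium with glucose and serum, and the labels give neither a promoter nor the number of clones. The labels do not say that replicates came from separate cultures, so p-values cover the spread between libraries, which may be technical.

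Splicing removes introns from pre-mRNA. Small nuclear RNAs, each held in a ring of Sm or Lsm proteins, recognise the ends of the intron and the branch point, and a set of Prp proteins then rearranges the complex into its active form. SR proteins bind exons and mostly favour use of nearby splice sites, while hnRNPs coat pre-mRNA and often block them, so that the balance between both classes sets which exons are kept. Many SR and hnRNP genes limit their own mRNA through exons that lead to its decay, which means that mRNA level and protein level need not move together.

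Values are CPM as normalized by the authors, which are not divided by gene length, so levels are compared between groups and not between genes. Differences between groups are log2 fold changes of log2(CPM + 1), given in log2 units with their standard errors (SE). Effective library sizes were 18050959 to 26238659 reads. The member with the fewest reads in any library, Rbm15, had 394 reads as recovered from the steps of its CPM values, a counting error of 5.04%. Hk2 stood at 65.3 ± 1.33 CPM in the libraries labelled WTHK2, 67.8 ± 2.92 CPM in LAC and 67.3 ± 2.11 CPM in EV (SD, n = 3 each). Hk1 stood at 285 ± 7.63 CPM in WTHK2, 302 ± 2.22 CPM in LAC and 324 ± 7.09 CPM in EV. Directions given for WTHK2, and the term hexokinase-null, therefore rest on the labels. All 5 mesenchymal or fibroblast-like markers checked (Vim, S100a6, Col3a1, Fn1, Cav1) were in the table, and the 4 epithelial and 3 leukocyte markers were not among its rows. The 61 genes of a hand-written list of very long proteins had per-library medians of -0.30 to -0.21 (WTHK2) and -0.32 to -0.23 (LAC) on the log2 scale relative to the EV mean, against -0.019 to 0.031 (EV). The 4 mitochondrially encoded transcripts had medians of 0.40 to 0.73 (WTHK2) and 0.45 to 0.80 (LAC), highest in the first replicates, against -0.040 to 0.031 (EV). The part of either in the results for splicing genes was not tested.

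In LAC, where cells described as hexokinase-null had received lactate, genes of the set were more often higher than lower. Of the 91 genes, 40 were called higher than in EV and 14 lower, where a call is an adjusted p under 0.05 in a limma fit over all 6753 genes; among all genes 22.4% were called higher and 27.1% lower, 49.5% in all. Of 127 listed splicing genes outside the name rule, 32 were higher and 34 lower (25.2% and 26.8%). The median of mean CPM was 153 for the set and 66.9 for all genes, and the part of expression level in these shares was not tested. The median log2 fold change of the set was 0.081, and that of all genes was -0.0035. The median per library, relative to the EV mean, was 0.081, 0.058 and 0.097 log2 units in LAC and -0.0025 to 0.0042 in EV. In bulk RNA a change in every cell and a change in some cells cannot be told apart. Changes were small: the median fold among called members was 1.14, and 12 members reached a fold of 1.2 in either direction. Every library of LAC lay above every library of EV for 47 members and below for 17, where 27.0% and 30.8% of all genes did so, 57.8% in all. After scaling all libraries to 1 common median the calls were 50 higher and 8 lower; of all calls over the 6753 genes 58.6% were then higher, against 45.3% before. Calls lower than EV numbered 8 without EV replicate 2, 9 without EV replicate 1 and 8 without LAC replicate 1. Leaving out the first replicates of WTHK2 and LAC together gave 39 higher and 11 lower.

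In the libraries labelled WTHK2 fewer of these genes were called, again with more rises than falls. There 26 of the 91 genes were higher than in EV and 13 lower, against 21.0% and 25.4% of all genes, 46.4% in all. The median log2 fold change was 0.035 for the set and -0.0082 for all genes, and 6 members reached a fold of 1.2. The per-library medians were 0.043, 0.041 and -0.0026 log2 units in WTHK2, the third no higher than the EV libraries at -0.0025 to 0.0042. Called members had a median fold of 1.13. The libraries labelled WTHK2 lay wholly above EV for 29 members and wholly below for 19, where the shares of all genes were 26.6% and 30.5%, 57.1% in all. Both comparisons share the 3 EV libraries. Scaling to a common median gave 36 higher and 9 lower, and of the calls over all genes 57.3% were then higher, against 45.3% before. The set's median was then 0.071; it was 0.068 without the RBM genes, 0.057 without EV replicate 1, 0.019 without EV replicate 3 and 0.017 without WTHK2 replicate 2. Higher calls numbered 16 without EV replicate 1 and 17 without EV replicate 2, and lower calls 8 without EV replicate 2. Without both first replicates there were 22 higher and 13 lower.

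**Figure D1:**
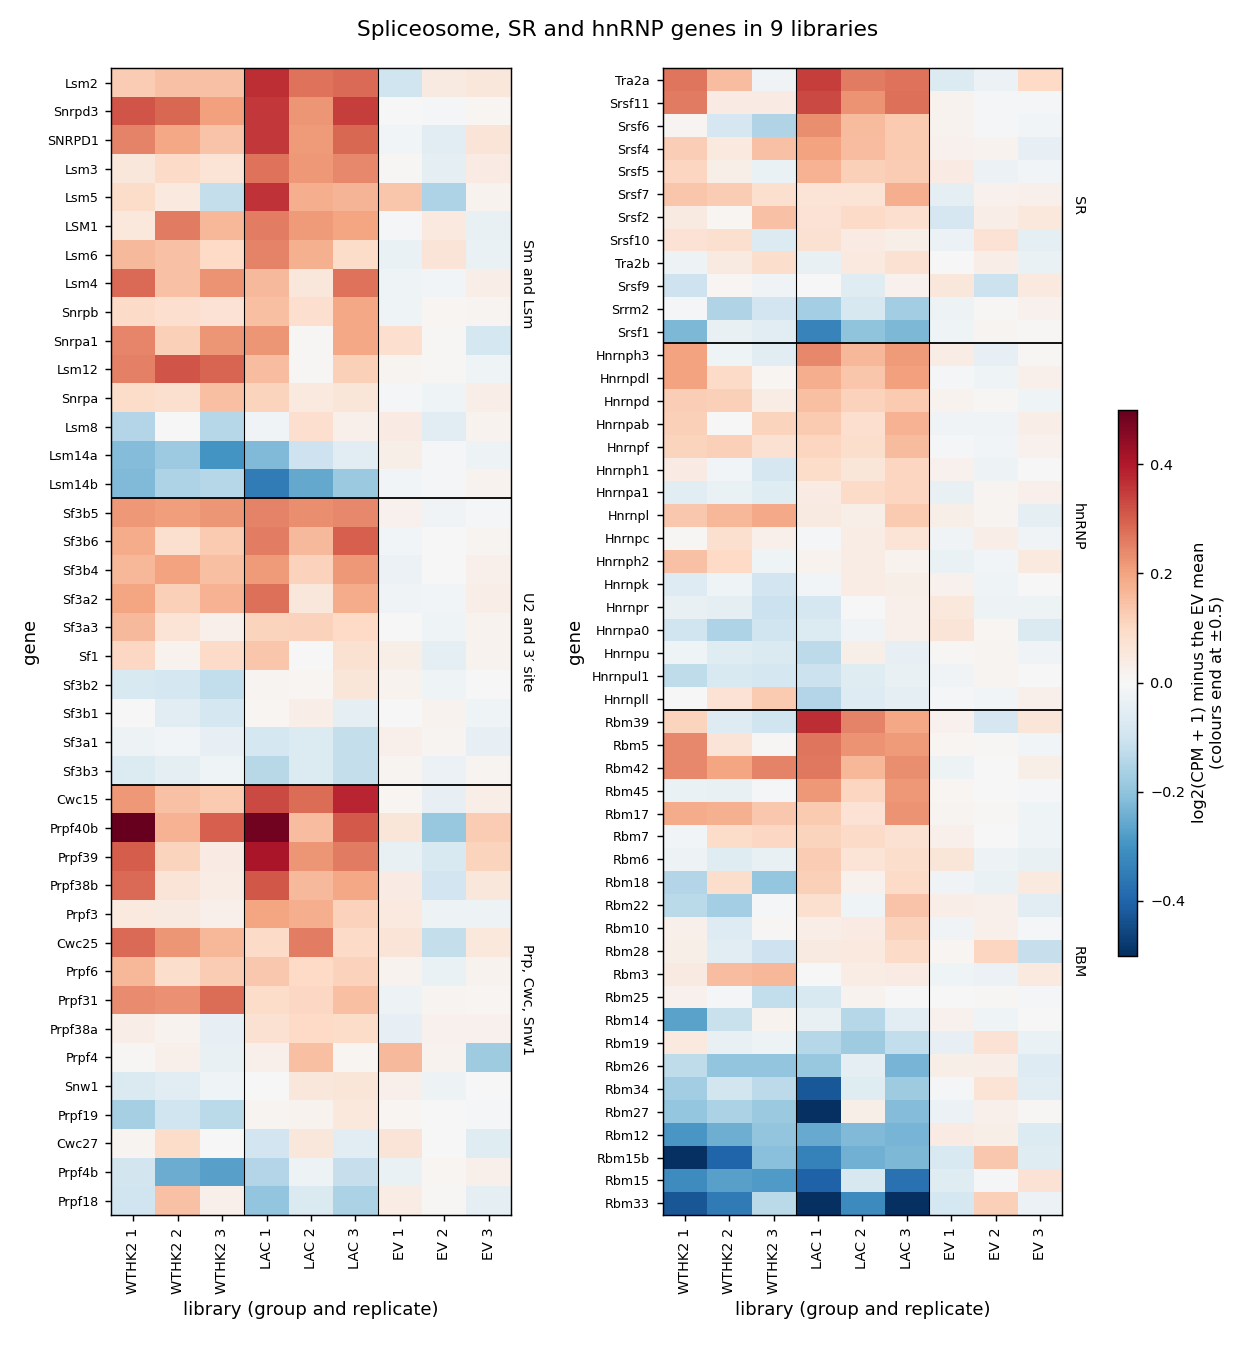
Each row is a gene (all of the set but 1) and each column a library, with colour giving log2(CPM + 1) minus the mean of the 3 EV libraries, from blue (lower) to red (higher), and rows grouped by family and sorted by the LAC against EV value. Most rows of the Sm and Lsm group, and Sf3b5 and Sf3b6, are red in most WTHK2 and LAC libraries, while Lsm14b is blue in all of them. Of the 15 log2 fold changes of that group, 12 were above 0 in WTHK2 and 13 in LAC. The lowest RBM rows, ending with Rbm33 (log2 fold change -0.53 in LAC), are blue.

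Counted by name group, rises outnumbered falls in 5 of the 6 groups in both comparisons, while among RBM genes falls outnumbered rises, which turned round in LAC after scaling to a common median. Of all genes 21.0% were higher and 25.4% lower in WTHK2, and 22.4% and 27.1% in LAC. The shares higher in WTHK2 among SR (16.7%), hnRNP (18.8%) and RBM genes (13.6%) were below that of all genes. The Sm and Lsm group, which includes Snrpa and Snrpa1, had 9 of 15 higher and 2 lower in WTHK2, and 10 higher and 1 lower in LAC. The U2 group had 4 of 10 higher and 1 lower in WTHK2, and 5 and 2 in LAC. Prp, Cwc and Snw1 genes counted 5 of 16 higher and 3 lower in WTHK2, and 7 and 1 in LAC. Of 12 SR genes 2 were higher and 0 lower in WTHK2, with 6 and 2 in LAC; without both first replicates WTHK2 had 1 and 2. The hnRNP genes had 3 of 16 higher and 2 lower in WTHK2, and 7 and 0 in LAC; quantile normalization gave 3 and 3 in WTHK2. RBM genes had 3 of 22 higher and 5 lower in WTHK2, and 5 and 8 in LAC. In LAC the RBM counts were 8 and 4 after scaling to a common median, 6 and 6 with quantile normalization and 5 and 7 with a trimmed mean. Sm and Lsm genes had per-library medians of 0.096 to 0.14 log2 units in WTHK2 and 0.085 to 0.22 in LAC, against -0.012 to 0.017 in EV. Counts are of limma calls adjusted over all genes, and the groups were not tested against each other.

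**Figure D2:**
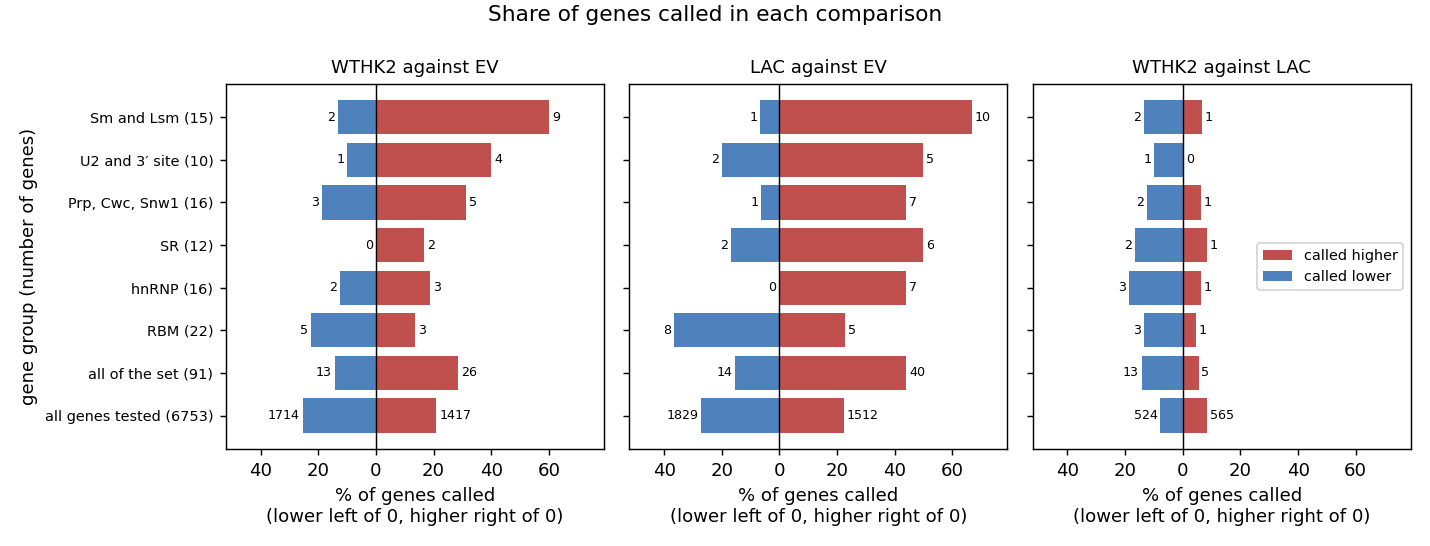
Bars give the percentage of genes called higher (right of 0) or lower (left of 0) in each comparison, for the 6 name groups, the whole set of 91 and all 6753 genes, with the number called beside each bar. In LAC against EV, the Sm and Lsm group, which includes Snrpa and Snrpa1, reached 66.7% higher, against 22.4% of all genes.

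Sm proteins form the ring around most spliceosomal small nuclear RNAs, and 2 of the 3 listed ring members, Snrpd3 and SNRPD1, rose in both groups. Snrpd3 stood at 274, 269 and 254 CPM in the libraries labelled WTHK2, at 281, 256 and 279.6 CPM in LAC, and at 219.5, 219 and 222 CPM in EV. All 6 WTHK2 and LAC libraries lay above all EV libraries, with rises of 0.27 log2 units (SE 0.042, adjusted p = 3.50e-05) in WTHK2 and 0.31 log2 units (SE 0.042, adjusted p = 9.61e-06) in LAC. SNRPD1 had 179, 172 and 166 CPM in WTHK2 and 193, 175 and 184 CPM in LAC, against 149, 145 and 158 CPM in EV. Its groups did not overlap with EV either, and it rose by 0.19 log2 units (SE 0.046, adjusted p = 0.00190) in WTHK2 and 0.29 log2 units (SE 0.046, adjusted p = 5.45e-05) in LAC. Snrpb, which codes for SmB, was not called in WTHK2, at 0.084 log2 units (SE 0.036, adjusted p = 0.0602), and rose by 0.14 log2 units (SE 0.036, adjusted p = 0.00281) in LAC. In WTHK2 it was called after median scaling (adjusted p = 0.0135), with quantile normalization (0.0268) and with trimmed mean scaling (0.0319). Snrpa1, the U2 A′ protein, rose by 0.19 log2 units (SE 0.057, adjusted p = 0.00862) in WTHK2 and by 0.14 (adjusted p = 0.0470) in LAC, and without EV replicate 3 it was no longer called in WTHK2 (adjusted p = 0.0622). Snrpa, the U1 A protein, rose by 0.11 log2 units (adjusted p = 0.0355) in WTHK2 and had 0.074 (adjusted p = 0.132) in LAC.

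The Lsm proteins make the corresponding ring on U6, and a related ring with LSM1 starts mRNA decay in the cytoplasm. Lsm2 had 75.7, 76.7 and 76.9 CPM in WTHK2, 89.7, 83.8 and 84.6 CPM in LAC and 64.5, 71.6 and 72.0 CPM in EV. The 3 groups did not overlap, and it rose by 0.14 log2 units (SE 0.054, adjusted p = 0.0396) in WTHK2 and by 0.31 log2 units (SE 0.054, adjusted p = 1.19e-04) in LAC. Lsm3 had 87.5, 89.8 and 88.1 CPM in WTHK2, 102, 97.9 and 99.3 CPM in LAC and 84.3, 81.4 and 86.5 CPM in EV, also without overlap. It rose by 0.24 log2 units (SE 0.047, adjusted p = 2.82e-04) in LAC and was not called in WTHK2, at 0.073 log2 units (SE 0.047, adjusted p = 0.204). Lsm4 rose by 0.22 log2 units (SE 0.062, adjusted p = 0.00717) in WTHK2 and by 0.16 (adjusted p = 0.0354) in LAC. LSM1 and Lsm6 rose in both groups, by 0.16 and 0.13 log2 units in WTHK2 (adjusted p = 0.0443 and 0.0427) and 0.22 and 0.17 log2 units in LAC (0.00634 and 0.0108). Lsm5 rose in LAC by 0.24 log2 units (adjusted p = 0.0265) and had 0.0080 (0.948) in WTHK2. Lsm8, which is specific to the U6 ring, was not called, at -0.097 log2 units in WTHK2 and 0.030 in LAC (adjusted p = 0.149 and 0.669). On the assembly CriGri-PICRH-1.0, used for gene order only, the 14 listed genes around Lsm4 had a median of 0.18 log2 units in WTHK2 and those around Lsm2 one of 0.16 in LAC. Around other risers the sign was opposite. Medians were -0.12 and -0.11 around LSM1 and -0.13 and -0.077 around Lsm6 in WTHK2 and LAC. In LAC they were -0.11 around Lsm3 and -0.048 around Lsm5. The part of neighbours in these rises was not tested.

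The group also holds Lsm12, Lsm14a and Lsm14b, whose proteins lie outside these rings. Lsm12 stood at 304, 317 and 313 CPM in WTHK2, 284, 256 and 277 CPM in LAC and 258, 256 and 252 CPM in EV. LAC overlapped EV and WTHK2 lay above both, with a rise of 0.29 log2 units (SE 0.040, adjusted p = 1.13e-05) in WTHK2; in LAC it was not called, at 0.093 log2 units (SE 0.040, adjusted p = 0.0574). Lsm14a and Lsm14b, proteins of cytoplasmic RNA granules that repress translation, were called lower in WTHK2. Lsm14a fell there, at -0.23 log2 units (SE 0.058, adjusted p = 0.00279), and was not called in LAC, at -0.13 log2 units (SE 0.058, adjusted p = 0.0779). Lsm14b had 44.9, 47.0 and 47.4 CPM in WTHK2, 41.0, 43.8 and 46.0 CPM in LAC and 51.9, 52.3 and 53.1 CPM in EV, with -0.17 log2 units (SE 0.061, adjusted p = 0.0262) in WTHK2 and -0.26 log2 units (SE 0.061, adjusted p = 0.00149) in LAC. Its WTHK2 call was lost after median scaling (adjusted p = 0.0752) and without EV replicate 1 (0.0551), EV replicate 2 (0.0620), EV replicate 3 (0.0736) and WTHK2 replicate 1 (0.0871).

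SF3a and SF3b are the parts of the U2 snRNP that hold the branch point. Sf3b5, Sf3b6, Sf3b4 and Sf3a2 were called higher in both groups. Sf3b5, a subunit of SF3b, had 139, 138 and 139 CPM in WTHK2, 142, 140.3 and 141 CPM in LAC and 121, 118 and 119 CPM in EV. Its spread within groups was small, and it rose by 0.22 log2 units (SE 0.040, adjusted p = 2.15e-04) in WTHK2 and 0.24 log2 units (SE 0.040, adjusted p = 7.09e-05) in LAC. Sf3b6, also called p14, had 85.2, 79.2 and 81.8 CPM in WTHK2, 89.5, 83.7 and 92.1 CPM in LAC and 73.9, 74.9 and 75.4 CPM in EV, and rose by 0.13 log2 units (SE 0.051, adjusted p = 0.0395) in WTHK2 and 0.24 log2 units (SE 0.051, adjusted p = 7.74e-04) in LAC. Sf3b4 rose by 0.17 log2 units (SE 0.039, adjusted p = 0.00136) in WTHK2 and 0.18 log2 units (SE 0.039, adjusted p = 8.62e-04) in LAC, and Sf3a2 by 0.16 and 0.17 log2 units (adjusted p = 0.00719 and 0.00472). Sf3b1, the large scaffold that clamps the branch point helix and is often mutated in blood cancers, had 329, 318 and 309.8 CPM in WTHK2, 332, 337 and 318 CPM in LAC and 330.5, 333 and 325 CPM in EV. All 3 groups overlapped, and its log2 fold changes were -0.048 log2 units (SE 0.036, adjusted p = 0.285) in WTHK2 and -0.0018 log2 units (SE 0.036, adjusted p = 0.972) in LAC, with 95% intervals of -0.12 to 0.027 and -0.077 to 0.074.

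Called falls in this family were each in 1 of the 2 comparisons. Sf3b3 and Sf3a1 were called lower in LAC, at -0.11 and -0.092 log2 units (adjusted p = 0.0134 and 0.0438), and were not called in WTHK2, at -0.046 and -0.027 (0.281 and 0.577). Sf3b2 stood at 501, 496 and 484 CPM in WTHK2, 533, 532 and 549 CPM in LAC and 535, 520.2 and 527 CPM in EV. WTHK2 lay below both other groups, and Sf3b2 fell, at -0.096 log2 units (SE 0.032, adjusted p = 0.0199), while LAC overlapped EV, at 0.029 log2 units (SE 0.032, adjusted p = 0.480). Sf3a3 rose in LAC by 0.11 log2 units (adjusted p = 0.0315) and had 0.085 (0.0939) in WTHK2. Sf1, which binds the branch point before U2 arrives, had 0.073 log2 units (SE 0.039, adjusted p = 0.134) in WTHK2 and 0.073 log2 units (SE 0.039, adjusted p = 0.129) in LAC. It was called higher in both after median scaling (adjusted p = 0.0347 and 0.0245), and in LAC without LAC replicate 2 (0.0253).

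Among the Prp and Cwc genes, which carry the spliceosome from assembly to catalysis, Cwc15 and Prpf31 rose in both groups. Cwc15, a component of the complex around the catalytic core, stood at 154, 147 and 145 CPM in WTHK2, 167, 161 and 173 CPM in LAC and 134, 129 and 136 CPM in EV, without overlap of either group with EV. It rose by 0.16 log2 units (SE 0.043, adjusted p = 0.00421) in WTHK2 and 0.33 log2 units (SE 0.043, adjusted p = 6.48e-06) in LAC. Prpf31, which joins U4/U6 to U5 and is mutated in some inherited retinal degeneration, had 218, 217 and 225 CPM in WTHK2, 197, 199 and 205 CPM in LAC and 182, 187 and 186 CPM in EV. It rose by 0.25 log2 units (SE 0.038, adjusted p = 2.66e-05) in WTHK2 and 0.12 log2 units (SE 0.038, adjusted p = 0.0155) in LAC, and its 14 listed neighbours had medians of 0.21 and 0.19 log2 units in the same comparisons. The part of the neighbourhood was not tested. Of other U4/U6.U5 tri-snRNP proteins with a Prp name, Prpf6 was higher by 0.13 log2 units in WTHK2 and 0.12 in LAC (adjusted p = 0.00626 and 0.00945). Prpf3 was higher by 0.16 in LAC (adjusted p = 0.00416), with 0.039 (0.485) in WTHK2. Outside the name rule, Snrnp200 of the tri-snRNP was lower in both groups, at -0.28 and -0.25 log2 units. The list of U snRNP and tri-snRNP proteins outside the rule had 4 of 18 higher and 2 lower in WTHK2, and 5 and 2 in LAC. Its shares higher, 22.2% and 27.8%, compare with 21.0% and 22.4% of all genes. Prpf4 was not called, at -0.0025 log2 units (adjusted p = 0.979) in WTHK2 and 0.061 (adjusted p = 0.472) in LAC.

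Prpf39 and Prpf40b act on the side of the U1 snRNP, which binds the start of the intron. Prpf39 had 136, 119 and 113 CPM in WTHK2, 146, 129 and 132 CPM in LAC and 107, 104 and 119 CPM in EV, with the first replicate highest in WTHK2 and LAC. It rose by 0.30 log2 units (SE 0.064, adjusted p = 7.90e-04) in LAC, and in WTHK2 it had 0.15 log2 units (SE 0.064, adjusted p = 0.0572). Prpf40b stood at 69.1, 50.9 and 55.6 CPM in WTHK2, 63.3, 50.2 and 56.0 CPM in LAC and 47.0, 39.4 and 49.3 CPM in EV, with 0.36 log2 units (SE 0.098, adjusted p = 0.00546) in WTHK2 and 0.31 log2 units (SE 0.098, adjusted p = 0.0119) in LAC. The first replicates were highest in both groups. It was no longer called in WTHK2 without EV replicate 2 (adjusted p = 0.0511), and without EV replicate 2 (0.0963) or LAC replicate 1 (0.0670) in LAC, where a robust fit gave 0.0502.

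Prpf19, the ubiquitin ligase that anchors the activated complex, had 281, 294 and 287 CPM in WTHK2, 319, 319 and 327 CPM in LAC and 317, 316 and 313 CPM in EV. It was lowest in WTHK2, where it fell, at -0.13 log2 units (SE 0.034, adjusted p = 0.00357), and LAC lay slightly above EV, not called, at 0.029 log2 units (SE 0.034, adjusted p = 0.499). Its neighbours had a median of -0.19 log2 units in WTHK2 against EV, and their part was not tested. Snw1, also called SKIP, had -0.049 log2 units (SE 0.043, adjusted p = 0.371) in WTHK2 and 0.038 log2 units (SE 0.043, adjusted p = 0.488) in LAC. Prpf4b, a kinase that acts on spliceosomal proteins, fell in WTHK2, at -0.20 log2 units (SE 0.050, adjusted p = 0.00251), and had -0.094 log2 units (SE 0.050, adjusted p = 0.121) in LAC. Cwc25, known in yeast as a factor of the first catalytic step, rose by 0.22 log2 units (SE 0.063, adjusted p = 0.00679) in WTHK2 and had 0.15 log2 units (SE 0.063, adjusted p = 0.0539) in LAC; its neighbours had a median of 0.19 log2 units in WTHK2, whose part was not tested, and without EV replicate 2 it was no longer called (adjusted p = 0.0595). Prpf38b rose in LAC by 0.22 log2 units (adjusted p = 0.00368) and had 0.13 (0.0741) in WTHK2. Prpf38a, Prpf18 and Cwc27 were not called in either group, at 0.0028, 0.024 and 0.035 log2 units in WTHK2 and 0.089, -0.14 and -0.031 in LAC.

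**Figure D3:**
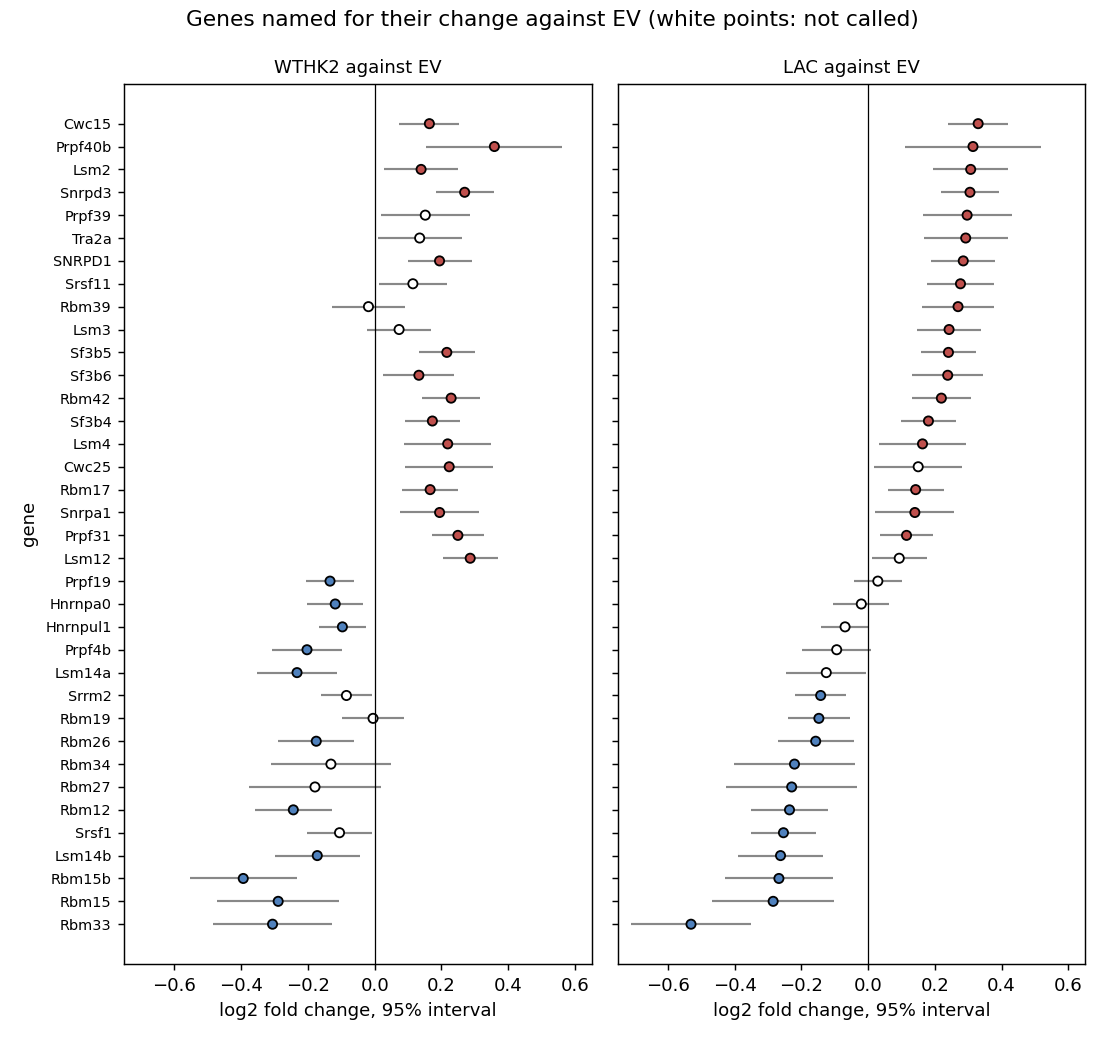
Points give log2 fold changes against EV with their 95% intervals for all but 1 of the genes with the largest called rises and falls, red where called higher, blue where called lower and white where not called, in WTHK2 (left) and LAC (right). Rbm39 lies at -0.018 in WTHK2 and 0.27 in LAC, and Rbm33 at -0.31 and -0.53.

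In LAC 6 of the 12 SR genes rose and 2 fell (22.4% and 27.1% of all genes did), and in WTHK2 2 rose (16.7%, against 21.0%). Srsf1, the founding SR protein and a splicing activator with oncogenic activity, had 211, 240.0 and 237 CPM in WTHK2, 195, 214 and 211 CPM in LAC and 243, 249 and 247 CPM in EV. Both groups lay below EV, the first WTHK2 library well below the other two, and Srsf1 fell in LAC, at -0.25 log2 units (SE 0.047, adjusted p = 2.12e-04), and had -0.11 log2 units (SE 0.047, adjusted p = 0.0731) in WTHK2, where it was called lower without WTHK2 replicate 2 (adjusted p = 0.0353). Srsf6, which promotes the inclusion of several disease-linked exons, had 434, 406 and 388 CPM in WTHK2, 507, 481 and 471 CPM in LAC and 437, 429 and 427 CPM in EV. LAC lay above both other groups, with a rise of 0.17 log2 units (SE 0.040, adjusted p = 0.00132), and WTHK2 had -0.074 log2 units (SE 0.040, adjusted p = 0.136). Srsf11 stood at 274, 235 and 235 CPM in WTHK2, 287, 267 and 276 CPM in LAC and 231, 227 and 227 CPM in EV, with the first replicate highest in WTHK2 and LAC. It rose by 0.28 log2 units (SE 0.049, adjusted p = 1.29e-04) in LAC and had 0.11 log2 units (SE 0.049, adjusted p = 0.0603) in WTHK2. Tra2a, a partner of SR proteins named after a sex-determining gene of the fly, had 132, 122 and 108 CPM in WTHK2, 139, 131 and 132 CPM in LAC and 104, 107 and 117 CPM in EV. It rose by 0.29 log2 units (SE 0.060, adjusted p = 5.39e-04) in LAC and had 0.13 log2 units (SE 0.060, adjusted p = 0.0720) in WTHK2, where the groups overlapped. Its close relative Tra2b had 0.035 log2 units (SE 0.043, adjusted p = 0.524) in WTHK2 and 0.029 log2 units (SE 0.043, adjusted p = 0.593) in LAC.

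Srsf4 and Srsf5, which share the architecture of Srsf6, rose in LAC by 0.16 and 0.14 log2 units (adjusted p = 0.00394 and 0.00625). Srsf4 was also called in WTHK2, at 0.11 log2 units (adjusted p = 0.0482), and Srsf5 was not, at 0.035 (0.489). Srsf7, an SR protein with a zinc knuckle, rose by 0.11 log2 units in WTHK2 and 0.11 in LAC (adjusted p = 0.0252 and 0.0343). Its call was lost in WTHK2 without EV replicate 1 (0.129), WTHK2 replicate 1 (0.0616) and WTHK2 replicate 2 (0.0636), in LAC without EV replicate 1 (0.158), EV replicate 2 (0.0570) and LAC replicate 3 (0.197), and in both without the variance trend (0.0713 and 0.0871). Srsf2, a marker of nuclear speckles, had 0.068 log2 units (SE 0.042, adjusted p = 0.190) in WTHK2 and 0.085 log2 units (SE 0.042, adjusted p = 0.0973) in LAC, where median scaling gave an adjusted p of 0.0179. Srsf9 and Srsf10 were not called, at -0.037 and 0.028 log2 units in WTHK2 and -0.013 and 0.048 in LAC. Srrm2, a very large scaffold of nuclear speckles, had 1068, 969.8 and 1008 CPM in WTHK2, 955, 1017 and 953 CPM in LAC and 1056, 1080.3 and 1091 CPM in EV. It fell in LAC, which lay below EV, at -0.14 log2 units (SE 0.037, adjusted p = 0.00363), and in WTHK2, where the first library lay within EV, it had -0.085 log2 units (SE 0.037, adjusted p = 0.0673). It was called lower in WTHK2 without WTHK2 replicate 1 (adjusted p = 0.00885), without both first replicates (0.00366) and with quantile normalization (0.0101). Genes around Srsf1, which fell in LAC, had a median of -0.16 log2 units there. Those around Tra2a, which rose in LAC, had a median of the other sign, -0.17 log2 units. The part of these neighbours was not tested.

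**Figure D4:**
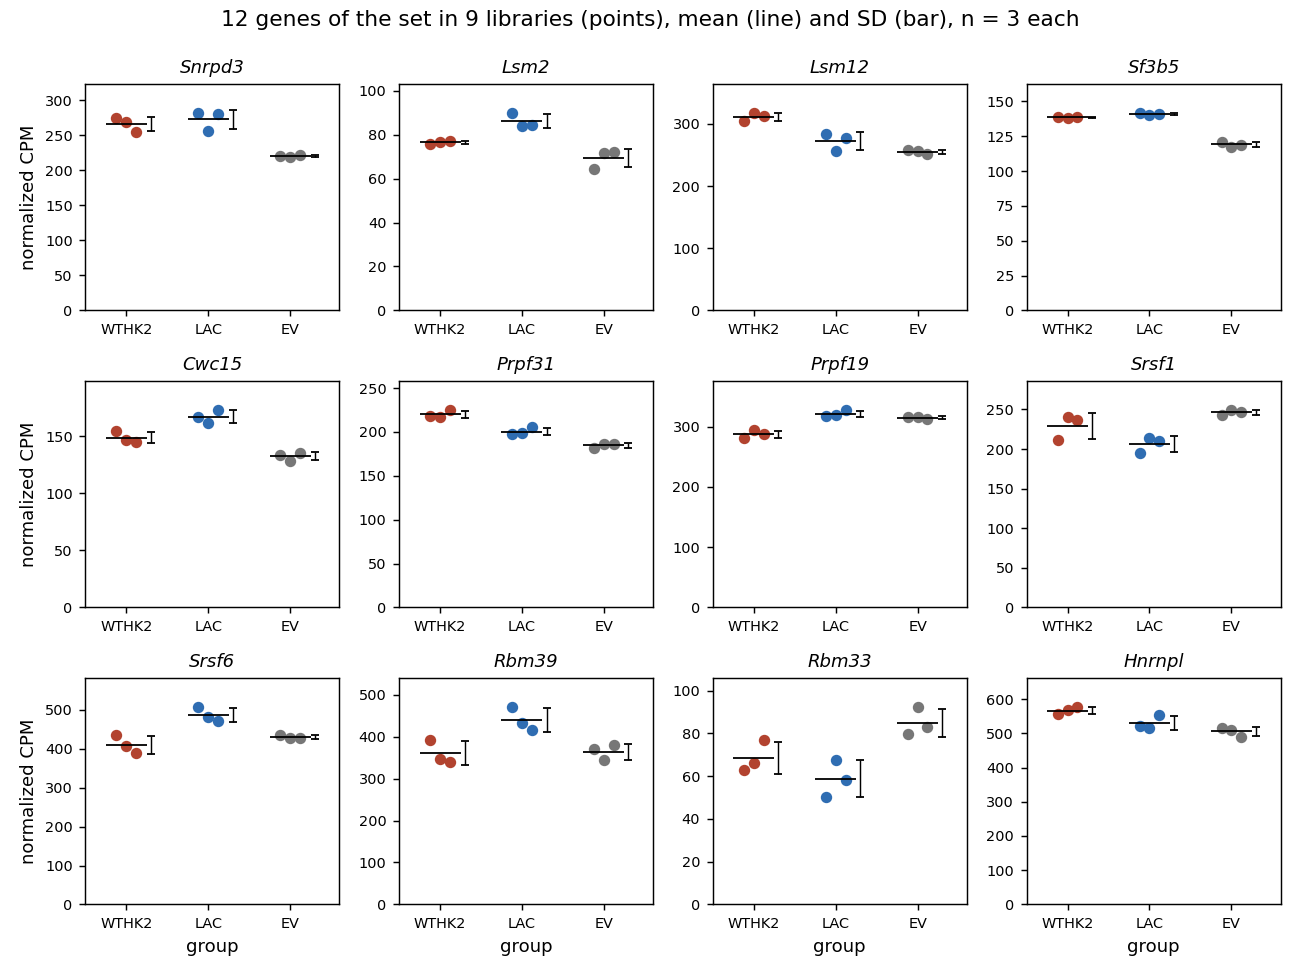
Points are normalized CPM in each library, lines are group means and side bars are SDs (n = 3 each), for 12 genes, with each axis starting at 0. Sf3b5 is at 138 to 142 CPM in all WTHK2 and LAC libraries and at most 121 CPM in EV, Rbm39 is high in LAC alone, and Prpf19 is low in WTHK2 alone.

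The 7 hnRNP genes called in LAC were all higher (43.8% of the 16, against 22.4% of all genes). With quantile normalization 5 were called higher there and 0 lower. Hnrnph3, of the family that binds runs of guanine, had 136, 116 and 113 CPM in WTHK2, 139.6, 133 and 137 CPM in LAC and 121, 115 and 119 CPM in EV. WTHK2 overlapped both other groups, with 0.040 log2 units (SE 0.055, adjusted p = 0.574), and LAC lay above EV, with a rise of 0.21 log2 units (SE 0.055, adjusted p = 0.00458). Its relatives Hnrnpf and Hnrnph1 rose in LAC by 0.12 and 0.087 log2 units (adjusted p = 0.00445 and 0.0470), and Hnrnph2 had 0.025 (adjusted p = 0.671). Hnrnpd, also known as AUF1 and a regulator of mRNA decay, rose by 0.13, Hnrnpdl by 0.17 and Hnrnpab by 0.13 log2 units in LAC (adjusted p = 0.00408, 0.00212 and 0.00616). In WTHK2 the 3 genes called higher among the 16 were Hnrnpl, Hnrnpf at 0.10 log2 units (adjusted p = 0.0142) and Hnrnpd at 0.093 (0.0349). These 3 made up 18.8% of the group, below the 21.0% of all genes. Hnrnpl, which binds repeats of cytosine and adenine, stood at 555, 567 and 576 CPM in WTHK2, 521, 515 and 554 CPM in LAC and 516, 511 and 491 CPM in EV, with a rise of 0.16 log2 units (SE 0.036, adjusted p = 9.84e-04) in WTHK2. In LAC it was not called, at 0.067 log2 units (SE 0.036, adjusted p = 0.124). Genes around it had medians of 0.14 and 0.16 log2 units, and their part was not tested. Hnrnpr and Hnrnpll were not called against EV, at -0.063 and 0.068 log2 units in WTHK2 and -0.020 and -0.085 in LAC.

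Hnrnpc, Hnrnpk and Hnrnpu were not called in either comparison with EV. Hnrnpc had 438 ± 11.7 CPM in WTHK2, 436 ± 11.8 CPM in LAC and 426 ± 9.02 CPM in EV (SD, n = 3 each), with log2 fold changes of 0.037 (95% interval -0.036 to 0.11) and 0.032 (-0.041 to 0.10). Hnrnpk, a binder of cytosine-rich sequence, had -0.061 log2 units (-0.13 to 0.0053) in WTHK2 and 0.017 (-0.049 to 0.083) in LAC, and Hnrnpu, a nuclear scaffold protein, had -0.051 (-0.13 to 0.024) and -0.047 (-0.12 to 0.028). Quantile normalization called Hnrnpk lower in WTHK2 (adjusted p = 0.0181) and leaving out LAC replicate 2 called Hnrnpu lower in LAC (adjusted p = 0.0371). Hnrnpa1, which often opposes Srsf1 at splice sites, had 847, 860.4 and 844 CPM in WTHK2, 907, 942 and 950.2 CPM in LAC and 858, 890.3 and 897 CPM in EV. It was called higher in LAC at 0.081 log2 units (adjusted p = 0.0406), which did not hold with quantile normalization (0.576), without the variance trend (0.134) or without EV replicate 1 (0.189), EV replicate 2 (0.0761), LAC replicate 2 (0.0661), LAC replicate 3 (0.135) and WTHK2 replicate 3 (0.0509). In WTHK2 Hnrnpa1 had -0.051 log2 units (SE 0.032, adjusted p = 0.197), and quantile normalization called it lower (0.00817).

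Hnrnpa0 and Hnrnpul1 were called lower in WTHK2, at -0.12 log2 units (adjusted p = 0.0219) and -0.097 log2 units (adjusted p = 0.0263). Both calls ended after median scaling (adjusted p = 0.101 and 0.171) and without the variance trend (0.0679 and 0.0822). The call of Hnrnpa0 was also lost without EV replicate 1 (0.141), EV replicate 2 (0.0697) and WTHK2 replicate 2 (0.0839), and that of Hnrnpul1 without EV replicate 2 (0.0954), EV replicate 3 (0.0669) and WTHK2 replicate 1 (0.0813). In LAC these genes had -0.020 and -0.069 log2 units, not called. Hnrnpa1, Hnrnph1 and Hnrnph2 have near-identical relatives or processed pseudogenes in mammals, so their values are uncertain: how the authors' counting divided such reads is not given in the sources used here.

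RBM genes are named for a shared RNA-binding domain, and their products range from splicing factors to proteins of RNA decay, RNA methylation and ribosome assembly. They are described here by known role, a sorting made after their values were seen. Rbm39, an SR-like partner of U2AF and the target of aryl sulfonamide degraders, had 392, 348 and 339 CPM in WTHK2, 469.8, 432 and 416 CPM in LAC and 369, 343 and 379.6 CPM in EV. LAC lay above both other groups, with a rise of 0.27 log2 units (SE 0.052, adjusted p = 2.98e-04), and WTHK2 overlapped EV, at -0.018 log2 units (SE 0.052, adjusted p = 0.795). Rbm42, a protein of the tri-snRNP, had 150.2, 146 and 151 CPM in WTHK2, 153, 143 and 149 CPM in LAC and 125, 127 and 129.6 CPM in EV, and rose by 0.23 log2 units (SE 0.042, adjusted p = 2.01e-04) and 0.22 log2 units (SE 0.042, adjusted p = 2.79e-04). Rbm17, also called SPF45, rose by 0.17 log2 units (SE 0.040, adjusted p = 0.00226) in WTHK2 and 0.14 log2 units (SE 0.040, adjusted p = 0.00631) in LAC. Rbm5, a regulator of apoptosis genes' splicing, rose in LAC by 0.24 log2 units (adjusted p = 6.52e-04) and had 0.10 (adjusted p = 0.0955) in WTHK2. Its relatives Rbm6 and Rbm10 and the U1-associated Rbm25 were not called, at -0.040, -0.011 and -0.035 log2 units in WTHK2 and 0.094, 0.064 and -0.020 in LAC. Rbm22, of the catalytic core, was not called against EV either, at -0.11 in WTHK2 and 0.067 log2 units in LAC.

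Called falls among RBM genes included regulators of RNA methylation and decay. Rbm33, known in human cells as a partner of the RNA demethylase ALKBH5, stood at 62.8, 66.1 and 77.0 CPM in WTHK2, 50.4, 67.8 and 58.2 CPM in LAC and 79.6, 92.2 and 82.9 CPM in EV. It fell, at -0.31 log2 units (SE 0.086, adjusted p = 0.00673) in WTHK2 and -0.53 log2 units (SE 0.086, adjusted p = 5.69e-05) in LAC, the largest fall of the 91 genes there. Rbm15b had 44.4, 50.2 and 57.3 CPM in WTHK2, 52.4, 56.2 and 56.8 CPM in LAC and 63.1, 73.2 and 63.7 CPM in EV, with the largest fall of the set in WTHK2, at -0.39 log2 units (SE 0.077, adjusted p = 3.82e-04), and -0.27 log2 units (SE 0.077, adjusted p = 0.00733) in LAC. Its relative Rbm15, which like it brings the adenosine methyltransferase complex to RNA, had the lowest mean of the set, with 21.8, 22.6 and 22.4 CPM in WTHK2, 20.5, 25.9 and 20.9 CPM in LAC and 26.3, 27.2 and 28.8 CPM in EV. It fell, at -0.29 log2 units (SE 0.087, adjusted p = 0.0106) in WTHK2 and -0.28 log2 units (SE 0.087, adjusted p = 0.0108) in LAC. Rbm12 fell, at -0.24 log2 units (SE 0.056, adjusted p = 0.00140) and -0.24 log2 units (SE 0.056, adjusted p = 0.00168). In these 4 genes, which are among the largest called falls, no WTHK2 or LAC library reached the EV range. Of the 22 RBM genes 31.8% lay wholly below EV in each comparison, near the 30.5% (WTHK2) and 30.8% (LAC) of all genes. Rbm26 and Rbm27, which link nuclear RNA to the exosome for decay, had -0.17 and -0.18 log2 units in WTHK2 and -0.16 and -0.23 in LAC, called except for Rbm27 in WTHK2 (adjusted p = 0.0133, 0.126, 0.0227 and 0.0496). Rbm19 and Rbm34, of the nucleolus, were called lower in LAC at -0.15 and -0.22 log2 units (adjusted p = 0.00914 and 0.0393), with -0.0048 and -0.13 in WTHK2. Rbm7, of a nuclear exosome adaptor, Rbm28, of the nucleolus, Rbm14, of paraspeckles, and Rbm18 were not called in either group, with values between -0.12 and 0.094 log2 units. Rbm45 rose in LAC by 0.18 log2 units (adjusted p = 0.0137) and had -0.026 (0.743) in WTHK2.

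Several of these RBM calls did not hold with every library left out in turn. In WTHK2 the call of Rbm33 was lost without EV replicate 2 (0.0522), that of Rbm15 without EV replicate 3 (0.0512) and that of Rbm26 without EV replicate 1 (0.0580) and EV replicate 2 (0.0581), all adjusted p-values. In LAC the call of Rbm15 was lost without EV replicate 3 (0.0517), LAC replicate 1 (0.0592) and LAC replicate 3 (0.0546), that of Rbm15b without EV replicate 2 (0.0648) and that of Rbm19 without EV replicate 2 (0.0752). Rbm26 lost its LAC call without EV replicate 1 (0.0841), EV replicate 2 (0.0857), LAC replicate 1 (0.0709) and LAC replicate 3 (0.117), Rbm34 without EV replicate 1 (0.0812), EV replicate 2 (0.145), LAC replicate 1 (0.268) and LAC replicate 3 (0.0567), and Rbm27 without EV replicate 1 (0.0869), EV replicate 2 (0.124), EV replicate 3 (0.104), LAC replicate 1 (0.379), LAC replicate 3 (0.0965), WTHK2 replicate 2 (0.0581) and WTHK2 replicate 3 (0.0568). Without LAC replicate 1 the LAC value of Rbm27 was -0.095 log2 units and that of Rbm34 -0.12. Median scaling ended the LAC calls of Rbm19 (0.0536), Rbm26 (0.0750), Rbm27 (0.0904) and Rbm34 (0.0809). Rbm3, a cold-inducible RNA-binding protein, rose in WTHK2 by 0.12 log2 units (adjusted p = 0.0213) and had 0.027 (adjusted p = 0.614) in LAC. Its WTHK2 call was lost without the variance trend (0.0568) and without EV replicate 1 (0.0799), EV replicate 2 (0.0898), WTHK2 replicate 2 (0.0781) and WTHK2 replicate 3 (0.0945).

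The direct comparison of the libraries labelled WTHK2 with LAC tested whether the 2 groups differ from each other. Of the 91 genes 5 were higher in WTHK2 and 13 lower, where 8.37% and 7.76% of all genes were, 16.1% in all. The groups did not overlap for 7 genes higher and 21 lower in WTHK2, against 14.5% of all genes each way and 29.0% in all. The median log2 fold change of the set was -0.035, against 0.0041 over all genes. Rbm39 had 392, 348 and 339 CPM in WTHK2 and 469.8, 432 and 416 CPM in LAC, without overlap, a difference of -0.29 log2 units (SE 0.052, adjusted p = 6.05e-04). The 14 listed genes around it had a median of -0.17 log2 units, and their part was not tested. Srsf6 had -0.25 log2 units (SE 0.040, adjusted p = 1.86e-04), and the 14 listed genes around it had a median of -0.20 log2 units in this comparison and -0.27 in WTHK2 against EV; their part was not tested. Prpf19 had -0.16 log2 units (SE 0.034, adjusted p = 0.00250), with a median of -0.16 log2 units over its neighbours, whose part was not tested either. Hnrnpa1 was lower in WTHK2 too, at -0.13 log2 units (SE 0.032, adjusted p = 0.00713), and Lsm12 higher, at 0.19 log2 units (SE 0.040, adjusted p = 0.00202). These 5 calls held with every library left out in turn. Rbm3 had 0.095 log2 units (adjusted p = 0.131) and was called higher in WTHK2 without WTHK2 replicate 1 (0.0254). The call of Hnrnpa1 was lost without the variance trend (0.0626).

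The other genes called between WTHK2 and LAC were closer to the threshold. Lower in WTHK2 were Rbm45 at -0.21 log2 units, Rbm22, a protein of the catalytic core, at -0.17, Lsm3 at -0.17, Lsm2 at -0.17, Cwc15 at -0.17, Hnrnph3 at -0.17, Srsf11 at -0.16 and Sf3b2 at -0.12. Hnrnph1, outside the rule for named genes and added after its value was seen, had -0.11 log2 units (adjusted p = 0.0468). Higher in WTHK2 were Hnrnpll at 0.15 log2 units, Srsf1 at 0.15, Rbm19 at 0.14 and Prpf31 at 0.13. Adjusted p-values of these 13 genes ranged from 0.0113 to 0.0468, and of the 17 genes called and named by the rule in this comparison 12 lost the call without at least 1 library. Higher calls numbered 1 without LAC replicate 1, 1 without WTHK2 replicate 3, 3 without WTHK2 replicate 2 and 8 without WTHK2 replicate 1. Lower calls were 6, 6, 7 and 19 in the same omissions and 5 without LAC replicate 3. Without both first replicates there were 4 higher and 15 lower.

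None of the 12 closer calls named by the rule held with every library left out in turn. For Hnrnph1, added later, such values are not given here. Leaving out LAC replicate 1 ended those of Rbm45, Rbm22, Lsm3, Lsm2, Hnrnph3, Srsf11, Hnrnpll, Srsf1, Rbm19 and Prpf31, with adjusted p-values of 0.0590 to 0.163. Leaving out WTHK2 replicate 3 ended those of Lsm3, Lsm2, Cwc15, Hnrnph3, Srsf11, Sf3b2, Hnrnpll, Srsf1, Rbm19 and Prpf31 (0.0560 to 0.240). Without WTHK2 replicate 2 the calls of Rbm45, Rbm22, Lsm2, Hnrnph3, Srsf11, Hnrnpll and Srsf1 were lost (0.0559 to 0.180), and without WTHK2 replicate 1 those of Rbm22, Lsm2 and Rbm19 (0.0615 to 0.0860). Without LAC replicate 3 those of Rbm45, Rbm22, Lsm2, Cwc15, Hnrnph3, Srsf11, Sf3b2, Srsf1 and Rbm19 were lost (0.0564 to 0.186), and without LAC replicate 2 that of Rbm19 (0.0695). EV libraries enter this comparison only through the shared estimate of spread; without EV replicate 1 or 2 the calls of Srsf1, Rbm22 and Hnrnph3 were lost, and without EV replicate 3 those of Srsf1 and Hnrnph3 (0.0522 to 0.0671).

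**Figure D5:**
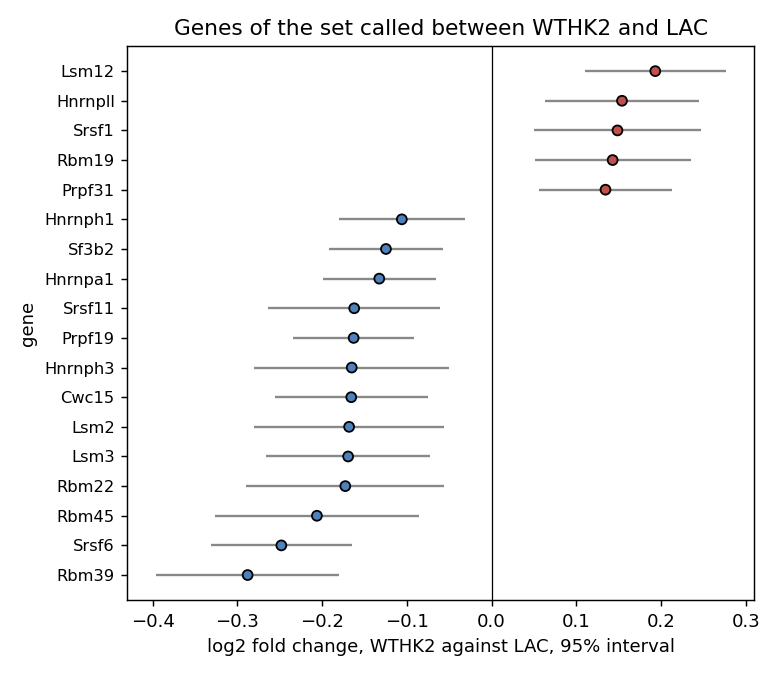
Points give the log2 fold change of WTHK2 against LAC with its 95% interval for the 18 genes of the set called in that comparison, blue where lower in WTHK2 and red where higher. Values run between -0.29 (Rbm39) and 0.19 (Lsm12).

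Splicing genes outside the name rule were counted from 8 lists written by hand with earlier results of these data known, of which 127 of 176 genes were in the table. In WTHK2 19 were called higher and 26 lower (15.0% and 20.5%, against 21.0% and 25.4% of all genes). In LAC 32 were called higher and 34 lower (25.2% and 26.8%, against 22.4% and 27.1%). Between WTHK2 and LAC 5 were higher and 6 lower (3.94% and 4.72%, against 8.37% and 7.76%). The list for helicases of the spliceosome, which also holds the more general helicases Dhx9 and Ddx17, had 1 of 13 higher and 6 lower in WTHK2. In LAC it had 0 higher and 8 lower. Dhx9, RNA helicase A, had -0.30 log2 units (SE 0.048, adjusted p = 6.27e-05) in WTHK2 and -0.41 log2 units (SE 0.048, adjusted p = 2.36e-06) in LAC. Dhx38 was lower in both, at -0.17 and -0.27 log2 units (adjusted p = 0.00573 and 1.02e-04). Ddx46 was lower in WTHK2 at -0.24 (2.66e-04) and not called in LAC (0.102). Dhx8 was lower in LAC at -0.16 (4.85e-04) and not called in WTHK2 (0.912). U2 and branch point factors outside the rule had 3 of 11 higher and 1 lower in WTHK2, and 6 higher and 1 lower in LAC. Among them Ctnnbl1, a protein of the activated spliceosome, was lower in WTHK2 at -0.15 log2 units (SE 0.040, adjusted p = 0.00390) and higher in LAC at 0.20 log2 units (SE 0.040, adjusted p = 3.71e-04). It had 173, 173 and 167 CPM in WTHK2, 228, 211 and 218 CPM in LAC and 191, 190.4 and 189 CPM in EV, with no overlap between any 2 groups, and differed between WTHK2 and LAC by -0.35 log2 units (SE 0.040, adjusted p = 2.18e-06).

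Kinases phosphorylate SR proteins, which controls their location and activity. The list made for them counted 2 of 7 genes higher and 2 lower in WTHK2 (28.6% each, against 21.0% and 25.4% of all genes). In LAC it counted 3 higher and 2 lower (42.9% and 28.6%, against 22.4% and 27.1%). The 7 genes include Scaf1, an SR-related protein that is not a kinase. Scaf1 was not called in WTHK2 (adjusted p = 0.0763) or LAC (0.238). Clk2 had 73.3, 60.6 and 60.6 CPM in WTHK2, 76.3, 63.2 and 73.2 CPM in LAC and 54.1, 54.7 and 53.1 CPM in EV, with rises of 0.25 log2 units (SE 0.074, adjusted p = 0.00812) in WTHK2 and 0.38 log2 units (SE 0.074, adjusted p = 2.91e-04) in LAC. Clk3 rose by 0.20 log2 units (SE 0.051, adjusted p = 0.00280) and 0.17 log2 units (SE 0.051, adjusted p = 0.00885). Srpk2, which acts in the cytoplasm, fell, at -0.33 log2 units (SE 0.072, adjusted p = 8.93e-04) in WTHK2 and -0.37 log2 units (SE 0.072, adjusted p = 3.55e-04) in LAC. Remaining U snRNP proteins had 4 of 18 higher and 2 lower in WTHK2 and 5 higher and 2 lower in LAC; the shares higher, 22.2% and 27.8%, were near those of all genes. Snrnp200, the large helicase that unwinds U4 from U6, fell, at -0.28 log2 units (SE 0.036, adjusted p = 4.12e-06) and -0.25 log2 units (SE 0.036, adjusted p = 1.26e-05), while Luc7l, of the U1 snRNP, rose by 0.26 log2 units (SE 0.060, adjusted p = 0.00135) and 0.33 log2 units (SE 0.060, adjusted p = 1.59e-04).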

How the data were processed

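Gene expression was measured by mRNA sequencing in 9 libraries, 3 in each of 3 groups named by the labels. The deposited table holds normalized CPM made by the authors. Per the submitters' processing notes, STAR 2.7.0a, featureCounts 2.0.1, edgeR 3.8, cutadapt 1.18 and FastQC 0.11.8 were used. The sources used here do not name the genome build, annotation, strand setting or scaling method. Each column was assigned to a sample by its name, and 0 columns of values were left unused. The lowest gene mean in the table was 20.4 CPM, so genes of low expression are not analysed here, and no row was removed by a filter at a mean of 1 CPM. CPM divides by library size, so each value depends on the rest of its library. All values were whole multiples of 1 step per library (tolerance 0.01 reads), which gave the effective library sizes.

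From these values log2(CPM + 1) was fitted with limma 3.58.1 in R 4.3.3 over all 6753 genes and 9 libraries, with a variance trend and no covariate, in 3 comparisons. Tests were two-sided, with Benjamini-Hochberg adjustment over all genes and a threshold of 0.05. The code was tested on simulated data. The members, families, pathway lists and tests were chosen with earlier results of these data known. Named genes were the 12 called members with the largest rise and the 12 with the largest fall in each comparison, 16 anchors of 21 that were in the table, the members with the highest and lowest mean, and up to 3 called genes of smallest adjusted p in each pathway list. Other members are given to account for the whole set and were chosen after their values were seen. Gene order came from RefSeq's CriGri-PICRH-1.0, which placed 86 members, and no sequence is shown. Neighbour medians are given for some genes only, mostly where their sign was that of the gene. For other named genes the sign was opposite. Examples in WTHK2 and LAC against EV are SNRPD1 (-0.12 and -0.13 log2 units), Sf3b5 (-0.11 and -0.10) and Rbm15b (0.076 and 0.13). The values of 1 member are not reported here, though it stays in the fit and the counts. Alternatives changed the pseudocount, filter, scaling, fit, threshold, libraries and member rule.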

Additional observations from a re-analysis of the deposited data

How the results depend on the processing

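Among the 106 results for named genes, 2430 values under alternatives kept the call in 2230 cases, lost it in 177, gained it in 23 and turned direction in 0. Counts are given as higher and lower. At a threshold of 0.01 WTHK2 against EV had 16 and 7, LAC against EV had 8 lower, and WTHK2 against LAC had 1 and 4. Without the RBM genes there were 8 lower in WTHK2 and 6 lower in LAC, and the WTHK2 median was 0.068 log2 units. After scaling all libraries to 1 common median, 80.0% of calls in WTHK2 and 86.2% in LAC were higher, against 66.7% and 74.1%; among all genes it was 57.3% and 58.6%, against 45.3% in each. That scaling gave 8 lower in LAC and medians of 0.071 (WTHK2) and 0.12 (LAC), with the median of all genes at 0.027 and 0.038. For WTHK2 against LAC, the fit on 6 libraries gave 3 higher, the fit without a variance trend 1 and 6, and the median without both first replicates was -0.058. With the replicate number as a block, WTHK2 against LAC had 20 lower, and Snrpb (adjusted p = 0.0469), Srsf1 (0.0209) and Srrm2 (0.0478) gained a call in WTHK2 against EV; the numbers share no stated source, residuals of libraries with the same number correlated at -0.0057 to 0.44 (different numbers, -0.33 to 0.19), and they were not taken as pairs. Leaving out 1 library gave 16 to 30 higher and 8 to 14 lower in WTHK2, 31 to 42 and 8 to 16 in LAC, and 1 to 8 and 5 to 19 between WTHK2 and LAC. The medians then ran between 0.017 and 0.057, between 0.077 and 0.093, and between -0.045 and -0.027. Of named calls, 11 of 26, 9 of 27 and 12 of 17 were lost without at least 1 library. Both count-model tests planned were not run; voom on reads recovered from the CPM steps, chosen after seeing the data, gave 25 and 14, 41 and 14, and 5 and 13. Planned TMM factors were computed as an unweighted trimmed mean and gave 32 and 12, 42 and 12, and 5 and 13. The cause of these shifts was not tested. With 3 libraries a group, small changes may be missed, and mRNA level does not show protein level or splicing itself.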

Other observations

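Mbnl1, Qk and Celf1, splicing regulators best known from muscle and brain, were lower in WTHK2 and LAC. Of 33 listed regulators and hnRNP-type proteins in the table, 3 were higher and 7 lower in WTHK2, and 8 higher and 12 lower in LAC, in limma calls adjusted over all genes. These are 9.09% and 21.2% in WTHK2, against 21.0% and 25.4% of all genes, and 24.2% and 36.4% in LAC, against 22.4% and 27.1%; after scaling to a common median LAC had 11 and 9. Mbnl1, the muscleblind protein sequestered in myotonic dystrophy, had 106, 130.1 and 127 CPM in WTHK2, 93.3, 125 and 103 CPM in LAC and 166, 166 and 170.0 CPM in EV. WTHK2 and LAC lay below EV, at -0.47 log2 units (SE 0.078, adjusted p = 7.37e-05) and -0.65 log2 units (SE 0.078, adjusted p = 2.85e-06). Qk, or quaking, which controls splicing and circular RNA formation, had 105, 115 and 122 CPM in WTHK2, 88.5, 113 and 104 CPM in LAC and 149.7, 158 and 145 CPM in EV. It was lower at -0.40 log2 units (SE 0.068, adjusted p = 9.96e-05) in WTHK2 and -0.57 log2 units (SE 0.068, adjusted p = 3.02e-06) in LAC. Celf1, which often opposes Mbnl1 at the same exons, had 37.4, 46.9 and 55.6 CPM in WTHK2, 37.7, 46.0 and 41.2 CPM in LAC and 58.8, 69.7 and 67.6 CPM in EV. It was lower at -0.49 log2 units (SE 0.10, adjusted p = 6.15e-04) in WTHK2 and -0.64 log2 units (SE 0.10, adjusted p = 4.78e-05) in LAC.

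In the list of snRNP assembly, Gemin5, the protein that recognises small nuclear RNAs for the SMN complex, was lower at -0.36 log2 units (SE 0.079, adjusted p = 0.00103) in WTHK2 and -0.39 log2 units (SE 0.079, adjusted p = 4.32e-04) in LAC. Snupn, the import adaptor for assembled snRNPs, was higher at 0.20 log2 units (SE 0.062, adjusted p = 0.0120) and 0.23 log2 units (SE 0.062, adjusted p = 0.00420). That list had 1 of 14 higher and 3 lower in WTHK2, and 3 and 3 in LAC (7.14% and 21.4%, and 21.4% each, against 21.0% and 25.4%, and 22.4% and 27.1%, of all genes); scaling to a common median gave 2 and 1 in WTHK2 and 4 and 1 in LAC. Among 20 factors of activation and catalysis, 4 were higher and 1 lower in both comparisons with EV, which share the EV libraries, and Bud31 was higher at 0.14 log2 units (SE 0.048, adjusted p = 0.0219) in WTHK2 and 0.28 log2 units (SE 0.048, adjusted p = 1.10e-04) in LAC. Exon junction and arginine-serine-rich partners had 1 of 11 higher and 4 lower in WTHK2 (9.09% and 36.4%). In LAC they had 3 and 5 (27.3% and 45.5%), or 5 and 3 after scaling to a common median. Son, a scaffold of nuclear speckles beside Srrm2, was lower at -0.22 log2 units (SE 0.040, adjusted p = 1.76e-04) in WTHK2 and -0.26 log2 units (SE 0.040, adjusted p = 2.84e-05) in LAC. Gemin5, Son and Srrm2 code for long proteins, and hand-listed genes of that kind were lower in the same libraries (per-library medians of -0.30 to -0.21 log2 units in WTHK2 and -0.32 to -0.23 in LAC, against -0.019 to 0.031 in EV). The part of protein or gene length in these values was not tested.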
